A study of Mus musculus with 2 samples.

Results

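The 42 genes described here encode the subunits of the receptors for glutamate and GABA, the main excitatory and inhibitory transmitters of the brain. The rule that picks them uses their symbols and no measured value, over the 19454 gene symbols of the deposited tables: every Gria, Grik, Grin and Grm gene with a number, every numbered Gabra, Gabrb and Gabrg gene, Gabrd, Gabre, Gabrq, Gabrp, Gabbr1 and Gabbr2. The set holds 4 AMPA, 5 kainate, 7 NMDA and 8 metabotropic glutamate receptor genes, 16 GABA-A genes and 2 GABA-B genes. UMIs (unique molecular identifiers, each standing for a captured molecule) were counted for 41 of them in the 2 libraries together, and Grm6 had none.

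AMPA, kainate and NMDA receptors are ion channels of 4 subunits that open when glutamate binds, and the subunits present set their conductance, calcium entry and kinetics. Metabotropic glutamate receptors act through G proteins. GABA-A receptors are chloride channels of 5 subunits, commonly alpha, beta and gamma or delta, and the alpha subunit shapes their pharmacology and their place inside or outside the synapse. GABA-B receptors are G protein-coupled pairs of Gabbr1, which binds GABA, and Gabbr2, which couples to the G protein.

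The assay counts RNA per barcoded spot of a slide, and a spot may cover several cells of different types. Both groups were nude mice. The flat group received a flat implant and gave 1 library, and the micropillar group received a micropillar implant and also gave 1 library. The labels give bone as the tissue of both and formalin-fixed, paraffin-embedded sections as the material. The strain's genotype beyond "nude mice", age, sex, and the number of animals are not stated in the labels. A nude mouse lacks a working thymus, so that grafted material is tolerated.

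Spots with at least 100 UMIs were kept, 2681 in the flat library with 2263345 UMIs and 3064 in the micropillar library with 3173632 UMIs. The median was 602 and 831 UMIs per spot. Genes of brain cells were abundant in both sections: 20 of 20 genes of a brain list had UMIs, with summed levels of 13546 CPM (counts per 1 M UMIs of the spots counted) in the flat section and 13719 CPM in the micropillar section. Osteoblast markers of the labelled tissue were low, 220 and 247 CPM summed over the 7 listed genes that the files hold, of which 6 had a UMI in the flat library. The libraries shared 2135 spot barcodes. A barcode marks a grid position here. A list of 5 gland genes had 1 UMI in the brain spots of the flat library and 2036 in those of the micropillar library, and the part of this difference in the comparisons between the libraries was not tested.

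Spots were sorted by marker lists that hold no receptor gene. A spot with at least 5 UMIs of a brain list, and more of it than of a list for other tissues, was called a brain spot. The flat library had 1444 of these and the micropillar library 1955. Within these, a spot belonged to the class whose list was most enriched, if at least 1.5-fold over the mean of brain spots on at least 3 UMIs. This gave 388 and 330 cortical marker spots, 262 and 214 striatal marker spots, 92 and 243 hypothalamic, 10 and 75 thalamic, 129 and 167 oligodendrocyte and 49 and 65 choroid marker spots in the flat and micropillar libraries, and 514 and 861 other brain spots that passed no list. The classes are ranges of a score, not cell types. Of the cortical spots 65 and 37 lay near the cut, with an enrichment of 1.5 to 2, and of the striatal spots 4 and 5. All 9 cortical markers, such as Tbr1 and Slc17a7, had UMIs in the cortical spots of both libraries, at a summed 2932 and 2968 CPM against 210 and 141 CPM in striatal spots. The 15 striatal markers summed to 22280 and 20892 CPM in striatal and 914 and 890 CPM in cortical spots. Fewer cells of a type in a spot and less RNA per cell cannot be told apart in these sums.

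Receptor subunit genes took 7223 CPM in the brain spots of the flat section (95% interval 7102 to 7346) and 6778 CPM in those of the micropillar section (6678 to 6879). The intervals throughout cover counting error only. The median subunit gene stood at 34.8 and 36.0 CPM in brain spots, against 6.96 and 8.51 CPM for all genes. Most of the sum came from few genes. Gabbr1 alone had 2249 CPM (flat) and 2198 CPM (micropillar), and Grin1, the obligatory NMDA subunit, 890 and 754 CPM. Gria2, the AMPA subunit that blocks calcium entry, had 432 and 397 CPM.

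Divided by the longest annotated transcript, Gabbr1 and Grin1 also came first, with Gabbr1 at 429 and 419 CPM per kilobase and Grin1 at 208 and 176. The labels do not say whether the counting depends on transcript length, so both scales are printed. Gria2 stood behind Gabra4 on the length scale, with 41.7 and 38.2 CPM per kilobase against 76.8 and 63.6. Within the AMPA family Gria1 stood ahead of Gria2 on the length scale, with 47.3 and 60.0 CPM per kilobase.

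By family, the 2 GABA-B genes summed to 2495 CPM in flat and 2394 CPM in micropillar brain spots, the GABA-A genes to 1947 and 1778 CPM and the NMDA genes to 1343 and 1174 CPM. The AMPA genes followed with 827 and 867 CPM, the metabotropic glutamate genes with 389 and 362 CPM and the kainate genes with 222 and 203 CPM. Grin1 held 66.3% and 64.2% of the NMDA sum, and Grik5 73.7% and 67.2% of the kainate sum.

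At the bottom of the scale, 5 members had fewer than 20 UMIs over both whole sections. In the order flat, micropillar, Gabrg1 had 3 and 8 UMIs, Grin3b 2 and 2, Gabra6 0 and 2, Gabre 0 and 1, and Grm6 none in either. Gabra6 is known from cerebellar granule cells and Grm6 from bipolar cells of the retina. No UMI of 2263345 allows a level of up to 1.33 CPM in the flat library, and none of 3173632 up to 0.945 CPM in the micropillar library. The other 37 members had at least 20 UMIs, 36 of them within the brain spots.

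**Figure D1:**
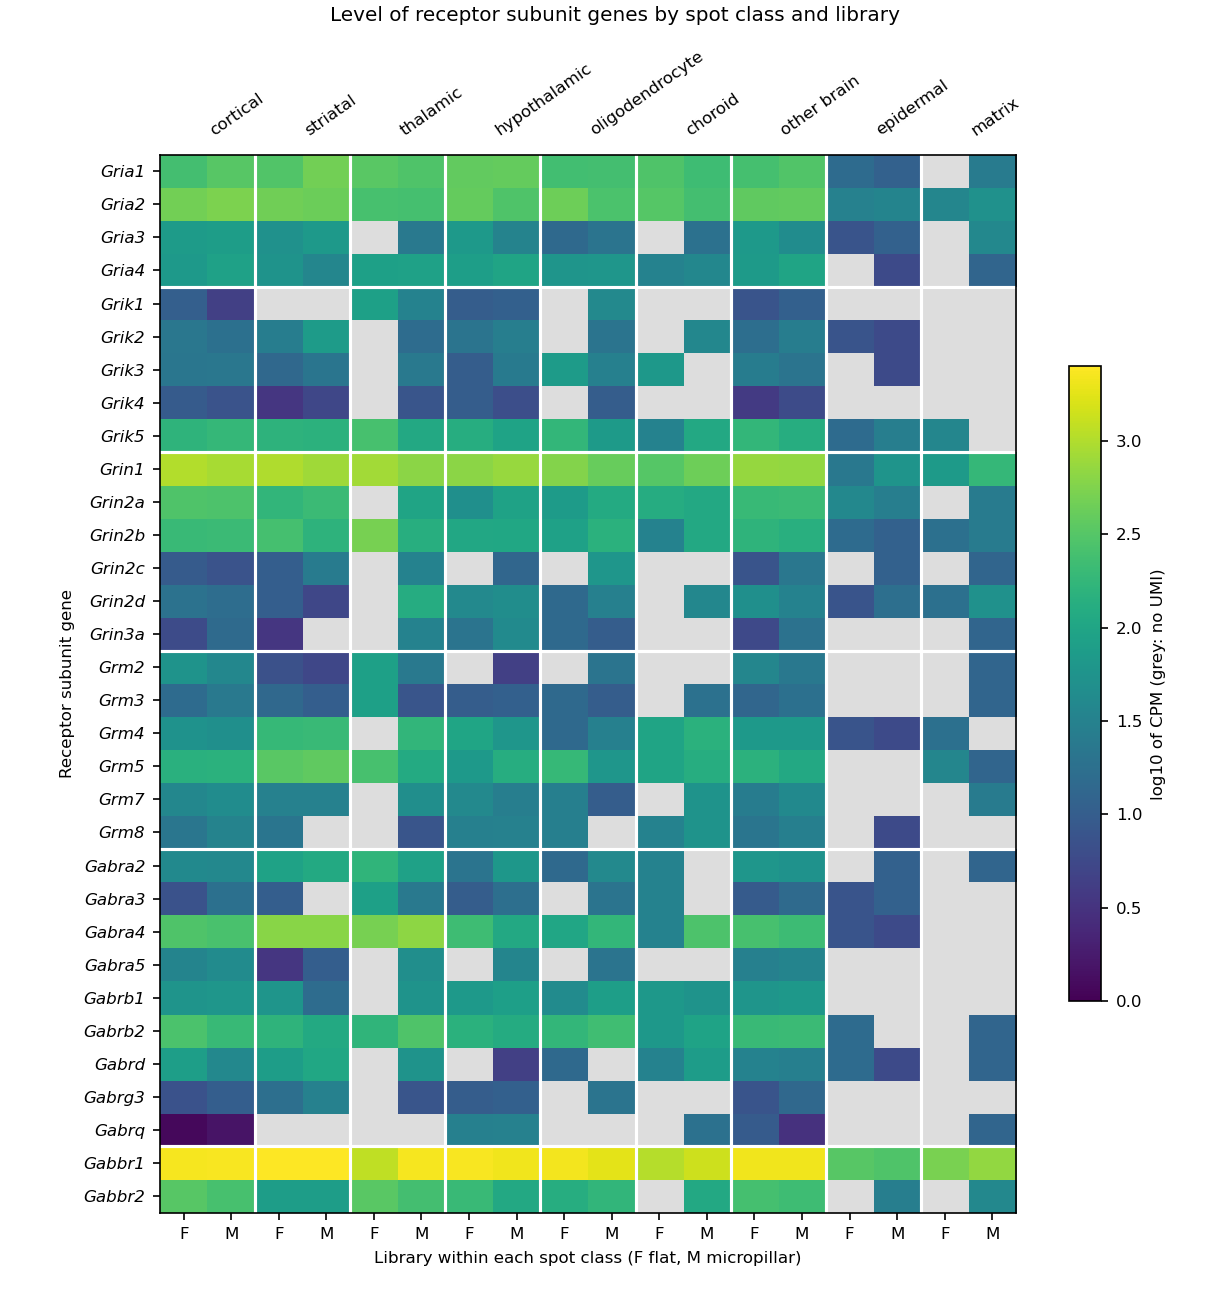
Level of each subunit gene by spot class and library. The colour gives log10 of CPM, from dark (low) to yellow (high, with any value above the scale at its top colour) and grey where a gene had no UMI, for 32 genes with at least 20 UMIs in brain spots. Columns are spot classes with the flat and the micropillar library beside each other, and the flat thalamic column rests on 10 spots; Gabbr1 is the brightest row in the cortical and striatal columns, and Grm4, Gabra2 and Gabra4 are brighter in striatal than in cortical columns.

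Cortical and striatal spots carried different alpha subunits of the GABA-A receptor. Gabra5 was higher in cortical spots, and Gabra4 and Gabra2 were higher in striatal spots, in both libraries. The second subunit of the GABA-B receptor, Gabbr2, and the metabotropic receptor gene Grm2 were higher in cortical spots, and Grm4 and Grm5 were higher in striatal spots. In all, 32 members had at least 20 UMIs over these spots. A member was counted as higher or lower when its level differed at least 2-fold in the same direction in both libraries and both intervals excluded equality. By this rule 4 members, Grm2, Gabra5 and Gabbr2 among them, were higher in cortical spots, beside 3.79% of the 8726 genes tested, and 4 (Grm4, Gabra2, Grm5 and Gabra4) were lower, beside 3.25%. Grm2 and Gabra5 reached the 20 UMIs needed only with those of cortical spots. The ratio had the same sign in both libraries for 27 of 32 members and for 5838 of 8726 genes. The median log2 ratio of cortical over striatal was 0.26 over the members, or 0.17 with genes that lacked a UMI on a side placed at their bound, and 0.11 and 0.09 over all genes tested. Cortical spots also held more pan-neuronal marker RNA, 14139 and 13172 CPM over 12 genes against 8955 and 9055 CPM in striatal spots. Counted per UMI of those 12 genes instead of per UMI in all, 1 member was higher in cortical spots (Gabbr2) and 5 were lower. This denominator lowers the cortical over striatal ratio of every gene, and the share of all genes called with it is not given here. With it, Gabra5 (mean log2 ratio of the libraries 1.93) and Grm2 (2.18) were no longer called. The call of Gabra2 was lost where a spot needed 2-fold enrichment (-1.05) and where spots were grouped by clustering (-0.99), and that of Gabra5 at 2-fold enrichment (2.25) and at a minimum of 500 UMIs per spot (2.35).

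Of the family sums, that of the metabotropic genes differed most between the classes. The metabotropic glutamate genes summed to 655 and 680 CPM in striatal and 354 and 360 CPM in cortical spots. The AMPA genes had 865 and 1004 CPM in striatal and 858 and 1033 CPM in cortical spots, the NMDA genes 1440 and 1219 against 1566 and 1435 CPM, and the GABA-A genes 1860 and 1778 against 2181 and 1932 CPM. The 10 members with too few UMIs for a ratio here were Gabra6, Gabre, Gabrg1, Gabrp, Gabrq, Grik1, Grik4, Grin3a, Grin3b and Grm6.

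The 5 of these 8 genes with a promoter entry in RefSeq are shown by the 250 bases before their annotated start (GRCm38.p6, the build also named mm10), since these genes were called between cortical and striatal spots. Sequences are written 5′ to 3′ on the gene's strand. Capitals mark the GC box GGGCGG, a site known to bind Sp1-type factors, on either strand. The cyclic AMP response element TGACGTCA and the TATA box TATAAA were searched as well, on both strands.
Gabra2 (chr5:71095850-71096099, minus strand): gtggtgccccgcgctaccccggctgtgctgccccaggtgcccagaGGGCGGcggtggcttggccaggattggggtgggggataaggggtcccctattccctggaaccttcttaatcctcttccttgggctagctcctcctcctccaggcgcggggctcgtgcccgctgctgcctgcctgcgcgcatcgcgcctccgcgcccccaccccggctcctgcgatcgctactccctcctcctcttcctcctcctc
Gabra4 (chr5:71658309-71658558, minus strand): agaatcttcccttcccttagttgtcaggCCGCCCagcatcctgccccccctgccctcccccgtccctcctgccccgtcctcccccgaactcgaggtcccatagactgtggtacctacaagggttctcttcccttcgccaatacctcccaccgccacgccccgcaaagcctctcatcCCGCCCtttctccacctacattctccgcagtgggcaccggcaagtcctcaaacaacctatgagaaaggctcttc
Gabra5 (chr7:57510060-57510309, minus strand): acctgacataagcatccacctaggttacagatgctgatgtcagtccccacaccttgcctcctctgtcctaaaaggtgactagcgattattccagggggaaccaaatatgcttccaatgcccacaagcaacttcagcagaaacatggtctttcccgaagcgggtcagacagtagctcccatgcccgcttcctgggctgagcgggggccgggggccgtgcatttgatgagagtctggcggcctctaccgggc
Gabbr2 (chr4:46991715-46991964, minus strand): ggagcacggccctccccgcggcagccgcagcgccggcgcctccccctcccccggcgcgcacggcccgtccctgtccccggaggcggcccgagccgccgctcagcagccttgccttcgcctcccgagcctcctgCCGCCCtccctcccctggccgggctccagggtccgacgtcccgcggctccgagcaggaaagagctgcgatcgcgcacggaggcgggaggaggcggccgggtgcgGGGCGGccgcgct
Grm2 (chr9:106656110-106656359, minus strand): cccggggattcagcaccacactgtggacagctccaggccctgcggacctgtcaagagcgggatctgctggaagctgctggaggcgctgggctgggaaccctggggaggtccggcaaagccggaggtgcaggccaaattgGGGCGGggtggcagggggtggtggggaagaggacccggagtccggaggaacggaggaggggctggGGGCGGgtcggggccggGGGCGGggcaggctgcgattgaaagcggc

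The GC box was in 4 of these 5 windows, with 1 match in Gabra2, 2 in Gabra4, 2 in Gabbr2, 3 in Grm2 and none in Gabra5. Among all 32851 promoter windows of the same length 32.7% held it, and of the 36 entries of 29 members 17 did. TATAAA was in 4 of the 36 entries and 12.4% of all windows, and TGACGTCA in 0 of 36 and 1.55%. The GC content was 80.8% for Gabbr2, 71.2% for Grm2, 70.0% for Gabra2, 61.2% for Gabra4 and 56.4% for Gabra5, against a median of 52.4% over all windows. A GC box stood before the RefSeq start of genes higher in striatal spots (Gabra2, Gabra4) and of genes higher in cortical spots (Gabbr2, Grm2) alike. In GENCODE, Gabbr2 starts at 46991873 on the minus strand, within its window. Both of its GC boxes lie past that start, inside the gene. No match says only that these letters are not in the window. Grm4 and Grm5 have no entry in the table.

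Gabra4 (chr5:71569749-71658308, minus strand, mm10), an alpha subunit known from receptors outside the synapse, had 620 CPM in striatal spots of the flat library (177 UMIs) and 628 CPM in those of the micropillar library (120 UMIs). Its cortical level was 287 CPM (242 UMIs) and 262 CPM (176 UMIs). The log2 ratio of cortical over striatal was -1.11 in the flat library (interval -1.40 to -0.82) and -1.26 in the micropillar library. The striatal levels of both libraries lay above both cortical ones, and their intervals did not overlap. Gabra2 (chr5:70957597-71095849, minus strand), another alpha subunit, lies in the same cluster of GABA-A genes, 473899 bases from Gabra4. It was scarcer than Gabra4 in striatal spots, at 91.1 CPM (26 UMIs) and 115 CPM (22 UMIs), and had 41.5 and 38.7 CPM in cortical spots. Its log2 ratio was -1.11 (-1.91 to -0.34) and -1.55.

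Of the other genes of that cluster, Gabrb1 did not follow Gabra4 and Gabra2. The beta subunit gene Gabrb1 overlaps Gabra4 by 196 bases on the opposite strand. It had 59.6 CPM in striatal and 58.1 CPM in cortical spots of the flat library, and 15.7 CPM (3 UMIs) and 61.0 CPM (41 UMIs) in the micropillar library. Gabrg1, the fourth gene, had 1 UMI in cortical spots of the flat library and none in the other sets of cortical and striatal spots. The counting may not separate the overlapping ends of Gabra4 and Gabrb1, since no label or header gives its strand setting.

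Gabrb2, a beta subunit gene, had 273 and 195 CPM in cortical and 161 and 115 CPM in striatal spots, a log2 ratio of 0.76 in both libraries, under the 2-fold rule.

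Gabra5 (chr7:57407672-57510059, minus strand), known from receptors outside the synapse in hippocampus and deep cortex, had 29 UMIs in the cortical spots of each library. It had 1 UMI in flat and 2 UMIs in micropillar striatal spots. The log2 ratio was 2.98 (0.70 to 8.65) in flat and 1.95 (0.06 to 5.16) in micropillar spots, so its size is known within wide limits only. Gabra5 overlaps another gene on the opposite strand, and reads from the shared stretch may be assigned to either gene. Gabrd, the delta subunit, had 79.5 CPM in cortical and 77.1 CPM in striatal spots of the flat library but 38.7 and 105 CPM in the micropillar library, so its ratio was 0.04 in flat and -1.41 in micropillar spots. The gamma subunit gene Gabrg3 had 7.12 and 10.4 CPM in cortical and 17.5 and 31.4 CPM in striatal spots.

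The 2 genes of the GABA-B receptor parted. Gabbr1 (chr17:37045966-37075067, plus strand) had 2290 and 2338 CPM in cortical and 2509 and 2642 CPM in striatal spots, a log2 ratio of -0.13 and -0.18. Gabbr2 (chr4:46662305-46991873, minus strand) had 326 CPM (275 UMIs) and 254 CPM (171 UMIs) in cortical spots and 77.1 CPM (22 UMIs) and 78.5 CPM (15 UMIs) in striatal spots. Its log2 ratio was 2.07 (1.45 to 2.78) in flat and 1.68 (0.94 to 2.57) in micropillar spots. It was also called per UMI of pan-neuronal genes.

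Among the metabotropic glutamate receptor genes, Grm4 (chr17:27422387-27521403, minus strand), an inhibitory receptor known from nerve terminals, had the lowest mean ratio of the 32 members tested. It had 189 CPM (54 UMIs) and 199 CPM (38 UMIs) in striatal spots and 53.4 CPM (45 UMIs) and 49.1 CPM (33 UMIs) in cortical spots. The log2 ratios were -1.81 (-2.43 to -1.23) and -1.995. Grm5 (chr7:87584168-88134907, plus strand), a mainly postsynaptic receptor that signals through phospholipase C, had 343 and 371 CPM in striatal and 145 and 150 CPM in cortical spots, with ratios of -1.24 (-1.64 to -0.85) and -1.30.

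Grm2 (chr9:106643095-106656082, minus strand), an inhibitory receptor known from terminals of excitatory axons, had 55.8 CPM (47 UMIs) and 37.2 CPM (25 UMIs) in cortical spots. Striatal spots held 2 UMIs of it in the flat section and 1 UMI in the micropillar section. The log2 ratios were 2.83 (1.06 to 6.08) and 2.62 (0.22 to 8.19). Grm8 had no UMI in the striatal spots of the micropillar library and 22 in the cortical ones, but 6 and 18 in the flat library, where its ratio was 0.02. Grm3 and Grm7 had intervals that included 0 in both libraries.

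None of the AMPA, kainate or NMDA members tested passed the 2-fold rule in both libraries. Grin1 had 1035 and 909 CPM in cortical and 988 and 821 CPM in striatal spots, and Gria2 had 472 and 540 CPM in cortical and 459 and 429 CPM in striatal spots. Grin2a, an NMDA subunit of mature synapses, had 294 and 280 CPM in cortical spots and 175 and 209 CPM in striatal spots, with a log2 ratio of 0.75 (0.31 to 1.22) in flat and 0.42 (-0.08 to 0.95) in micropillar spots. Grin2b had 203 and 207 CPM in cortical and 252 and 157 CPM in striatal spots, with ratios of opposite sign. Of the other AMPA genes, Gria1 had 243 and 326 CPM in cortical and 298 and 471 CPM in striatal spots, Gria3 73.6 and 78.9 against 52.6 and 68.0 CPM, and Gria4 68.8 and 87.8 against 56.1 and 36.6 CPM. Grik5, the most counted kainate gene, had 163 and 182 CPM in cortical and 158 and 152 CPM in striatal spots.

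**Figure D2:**
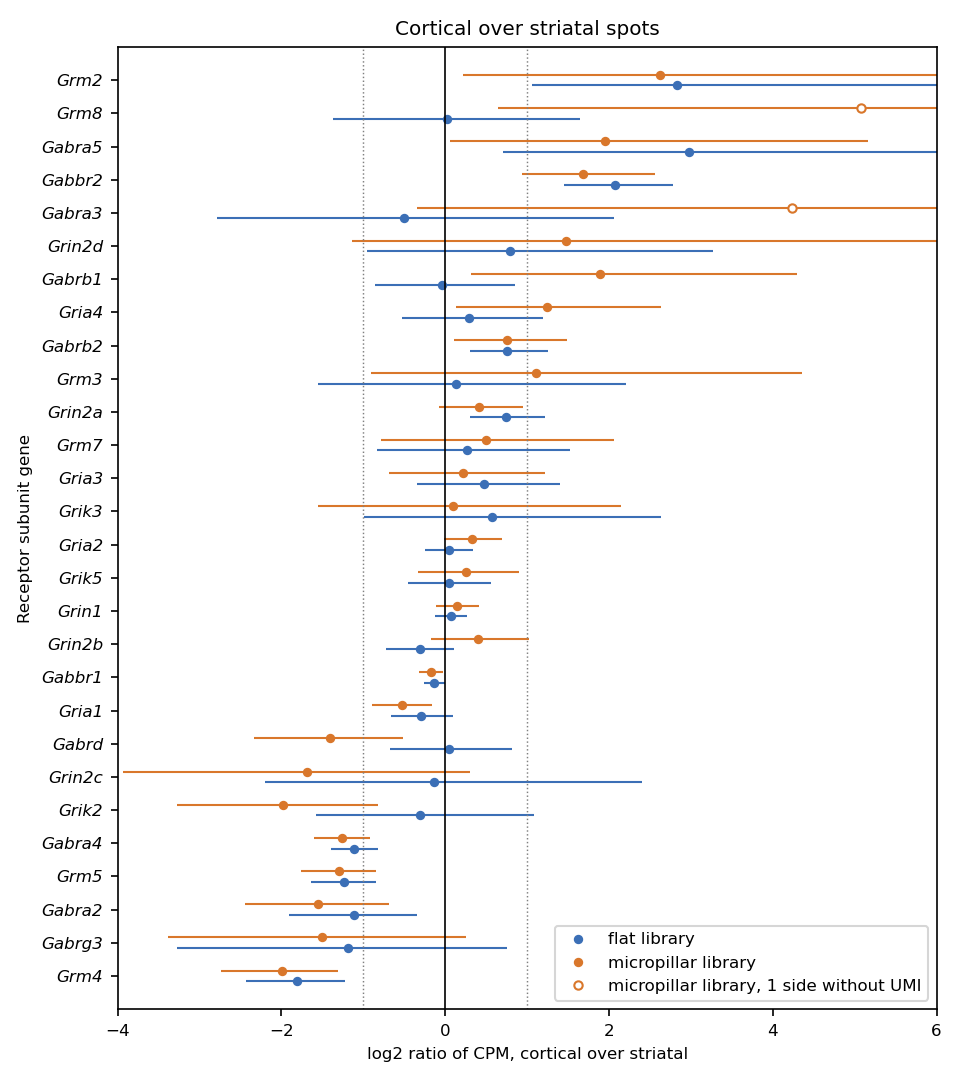
Log2 ratio of CPM, cortical over striatal spots, for 28 subunit genes, in the flat and the micropillar library with 95% counting intervals. Dotted lines mark 2-fold, the intervals are cut at the axis limits, and open circles mark ratios with no UMI on 1 side (Gabra3 and Grm8 in the micropillar library), whose position depends on the pseudocount of 1 CPM; Grm4, Gabra2, Grm5 and Gabra4 lie past -1 and Grm2, Gabra5 and Gabbr2 past 1 in both libraries with intervals off 0, while those of Gabrg3, also past -1, include 0.

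**Figure D3:**
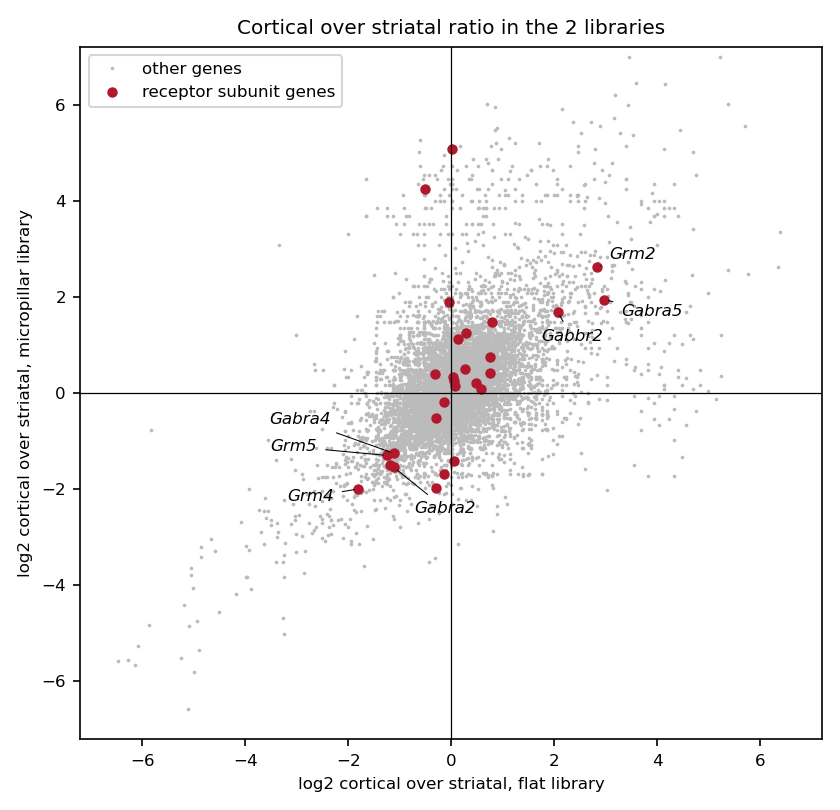
Log2 ratio of cortical over striatal CPM in the flat library (horizontal) against the micropillar library (vertical), with 28 subunit genes in red and other genes tested in grey. The named genes passed the 2-fold rule in both libraries, with Grm4, Grm5, Gabra2 and Gabra4 at the lower left and Grm2, Gabra5 and Gabbr2 at the upper right. Points with no UMI in 1 class lie where the pseudocount of 1 CPM puts them.

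The makeup of a family, each gene's share of the family's UMIs, needs no denominator from outside the family. In the metabotropic family, Grm5 led in both classes. Grm4 took 15.1% and 13.6% in cortical and 28.9% and 29.2% in striatal spots, and Grm2 15.8% and 10.3% against 1.07% and 0.769%. Gabbr2 took 12.5% and 9.82% of GABA-B UMIs in cortical and 2.98% and 2.88% in striatal spots. Gabra2, Gabra4, Gabbr2, Grm2 and Grm4 were among the members whose share intervals lay apart in the same direction in both libraries. Those of Gabbr1 lay apart too, but GABA-B has only 2 genes, so its share follows from that of Gabbr2. In the AMPA family the share of Gria2 was 55.0% and 52.3% in cortical and 53.0% and 42.7% in striatal spots, and that of Gria1 28.4% and 31.6% against 34.4% and 46.9%. The intervals of both genes overlapped between the classes in the flat library. Among the Grin2 genes, Grin2a took 56.0% and 54.8% in cortical spots and 39.1% and 52.6% in striatal spots.

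**Figure D4:**
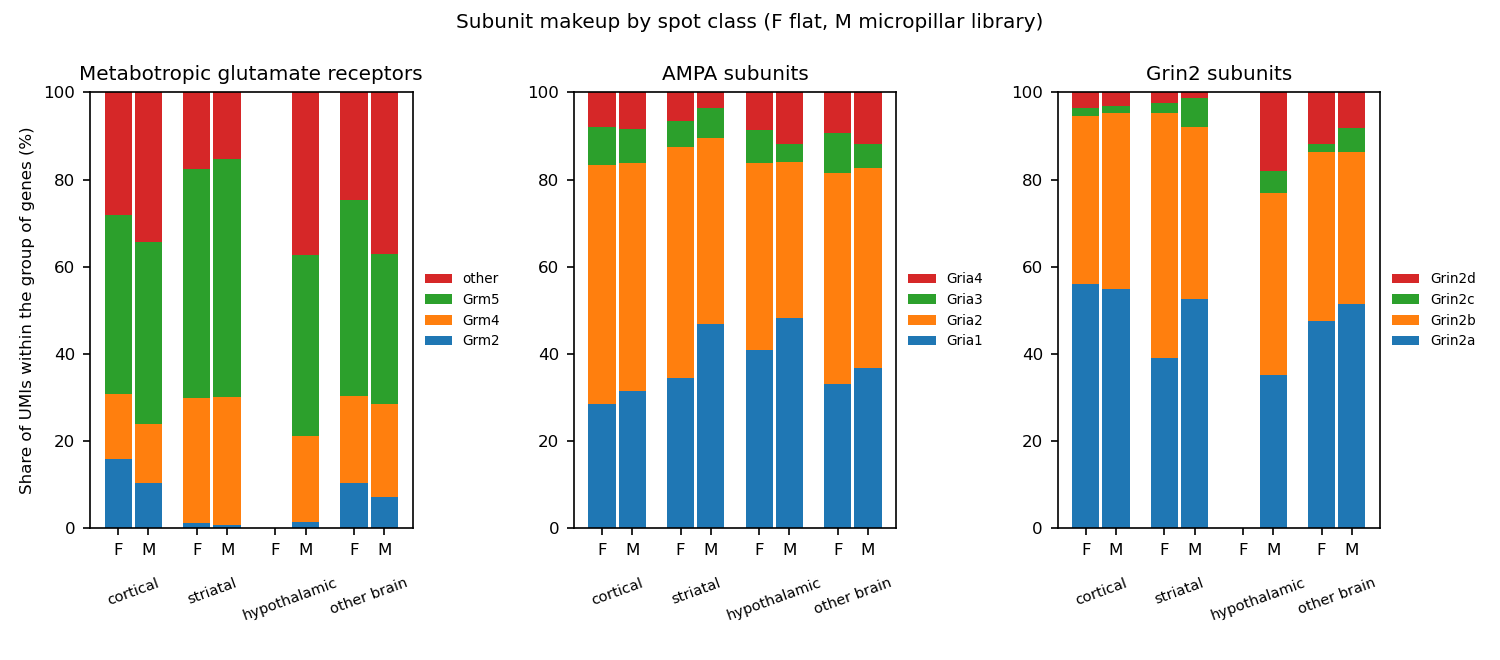
Share of each family's UMIs by subunit, in percent, in cortical, striatal, hypothalamic and other brain spots of the flat and micropillar libraries. Grm4 holds a larger and Grm2 a smaller part of the metabotropic bar in striatal than in cortical spots of both libraries, with the remaining genes of that family drawn together; the metabotropic and Grin2 bars are left out for flat hypothalamic spots, where each group of genes had fewer than 30 UMIs.

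Partner genes of the receptors were followed in lists that hold no member: transmitter synthesis and uptake, auxiliary subunits and scaffolds. Of 52 partner genes tested, 3 were higher in cortical and 8 were lower, by the same rule as the members. Over all 8726 genes tested these shares were 3.79% and 3.25%. In the list for GABA synthesis, loading and uptake, 4 of 6 were lower in cortical spots. Gad2, which makes GABA, had 75.9 and 72.9 CPM in cortical and 231 and 298 CPM in striatal spots, and the vesicular GABA transporter gene Slc32a1 had 38.0 and 25.3 CPM against 130 and 110 CPM. Gad1 and Abat were lower as well.

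Auxiliary subunits of AMPA receptors went both ways. The most counted, Frrs1l, had 332 and 357 CPM in cortical and 515 and 330 CPM in striatal spots. Cacng4 had 14.2 and 14.9 CPM in cortical and 158 and 126 CPM in striatal spots, while Cacng8 had 99.7 and 124 CPM in cortical and 49.0 and 57.5 CPM in striatal spots. Of the kainate receptor auxiliary subunits, Neto2 was lower in cortical spots, at 20.2 and 10.4 CPM against 70.1 and 36.6 CPM. The GABA-B auxiliary subunit gene Kctd8 had 19.0 and 11.9 CPM in cortical and 56.1 and 105 CPM in striatal spots, and Kctd16, the most counted of its list, 345 and 418 CPM against 273 and 267 CPM. Among the excitatory scaffold genes Dlg4, which encodes PSD-95, had 418 and 494 CPM in cortical and 494 and 581 CPM in striatal spots. Shank1 (99.7 and 81.9 CPM against 17.5 and 10.5 CPM) and Dlgap1 were higher in cortical spots and Shank3 (191 and 195 CPM against 434 and 413 CPM) was lower. None of 5 inhibitory scaffold genes passed, and gephyrin, Gphn, had 21.4 and 13.4 CPM in cortical and 42.0 and 26.2 CPM in striatal spots. None of 6 genes for glutamate loading, uptake and recycling passed.

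Hypothalamic spots were set against all other brain spots of the same library. Of 36 members tested, 1 was higher, beside 1.08% of 10999 genes, and 3 were lower, beside 1.67%. Gabrq (chrX:72825178-72842602, plus strand), the theta subunit of GABA-A receptors, had 3 UMIs in flat and 14 UMIs in micropillar hypothalamic spots, 30.04 and 30.74 CPM, against 6 and 5 UMIs in the rest of the brain spots, 3.39 and 2.35 CPM. The log2 ratios were 2.82 (0.52 to 5.37) and 3.25 (2.16 to 5.54), on few molecules. Gabrq reached the 20 UMIs needed only with those of hypothalamic spots. Gabrd had no UMI in flat and 2 UMIs in micropillar hypothalamic spots, against 108 and 86 in the rest, at least 2.03-fold lower in the flat library. Grm2 had none and 2 UMIs against 69 and 54, at least 1.30-fold lower in the flat library. Its count as 2-fold lower there rests on the pseudocount of 1 CPM. Grin2a had 50.1 and 90.0 CPM against 233 and 216 CPM, with log2 ratios of -2.19 (-3.85 to -0.98) and -1.26.

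The median log2 ratio over the members was -0.23, or -0.14 with genes at their bound, and over all genes tested -0.07 and 0.14. Pan-neuronal marker RNA was 8452 and 9273 CPM in hypothalamic and 11983 and 11127 CPM in all brain spots. Counted per pan-neuronal UMI, Gabrq stayed higher and Gabrd lower, and Grin2a (mean log2 ratio -1.31) and Grm2 were no longer called. Among the Grin2 genes of micropillar hypothalamic spots Grin2d took 17.9% (11.5 to 26.1), against 3.21% (1.61 to 5.67) in cortical spots, 8.10% (5.61 to 11.2) in other brain spots and 32.7% (19.9 to 47.5) in thalamic spots of that library. The family was too thinly counted in flat hypothalamic spots to give shares. Of 54 partner genes 2 were higher, beside 1.08% of 10999 genes, and 5 lower, beside 1.67%. Those higher were Slc17a6 and the glycine receptor gene Glra2, and those lower Slc1a2, Dlgap1, Dlgap2, Homer1 and Kctd16. They included the vesicular glutamate transporter gene Slc17a6, higher in hypothalamic spots at 80.1 and 114 CPM against 25.5 and 52.6 CPM, and the glial glutamate transporter gene Slc1a2, lower at 170 and 202 CPM against 472 and 445 CPM.

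The other classes gave fewer calls. In thalamic spots no member passed in either direction, beside 0.118% of genes higher and 0.109% lower, and the flat library held only 10 such spots. In the 75 thalamic spots of the micropillar library Gabra4 had 662 CPM (83 UMIs, 527 to 820), and in the flat ones 508 CPM (6 UMIs, 187 to 1107). In oligodendrocyte spots no member passed, beside 1.18% higher and 0.273% lower. Choroid spots had no higher member, beside 2.74%, and 2 lower ones, beside 1.13%, of which neither was called per pan-neuronal UMI. Other brain spots had no call, beside 0.145% and 0.264%, and Gabra4 stood there at 254 and 215 CPM.

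Cortical spots were split by markers of the upper and the deep layers, 88 and 76 upper and 75 and 70 deep spots. Of 24 members tested, none passed in either direction, beside 0.319% of 5644 genes higher in upper spots and 0.62% lower. Gabra5 had 9 and 8 UMIs in deep and 1 and 4 UMIs in upper spots, and its micropillar interval included 0. The kainate gene Grik3 had 9 and 8 UMIs in deep and 4 and 0 UMIs in upper spots, and its flat interval included 0. Differences of these sizes were not detectable at this depth in both libraries.

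The comparison of the micropillar with the flat library addresses the implant surface, but each group was 1 library, so the section and the implant cannot be told apart and no p-value is given. A member was counted when it differed at least 1.5-fold and its interval excluded equality. In brain spots 36 members were tested. Of these 2 were higher in the micropillar library, beside 7.45% of 10999 genes, and 2 were lower, beside 2.14%. Grin3a, an NMDA subunit that binds glycine, had 12 UMIs (6.43 CPM) in flat and 53 UMIs (20.5 CPM) in micropillar brain spots. Its log2 ratio was 1.53 (0.75 to 2.71). Grin2c, an NMDA subunit known from cerebellum, thalamus and astrocytes, had 15 UMIs (8.03 CPM) and 48 UMIs (18.6 CPM), a ratio of 1.12 (0.35 to 2.15). Grin3a and Grin2c reached the 20 UMIs needed only with those of the micropillar library. Gabrd went from 108 UMIs (57.8 CPM) to 88 UMIs (34.0 CPM), -0.75 (-1.19 to -0.34), and Grm2 from 69 UMIs (36.9 CPM) to 56 UMIs (21.7 CPM), -0.74.

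The makeup of the brain spots differed between the sections. Cortical spots were 26.9% of flat and 16.9% of micropillar brain spots, hypothalamic spots 6.37% and 12.4%. The 22 listed genes of other tissues that the files hold summed to 1120 and 2462 CPM in brain spots, and the 9 astrocyte genes to 945 and 1206 CPM. With the mix of spot classes held equal, an alternative added after the data were seen and called by fold alone, the ratio of Gabrd was -0.31 and that of Grm2 -0.56, both short of 1.5-fold. Grin3a (1.19) and Grin2c (1.246) stayed past it, with 4 members higher and 0 lower in all. With each spot given the same weight, again by fold alone, 5 members were higher and 1 lower, and Gabrd (-0.27) and Grm2 (-0.52) again fell short. The shares of all genes under these alternatives are not given here, so the counts have no background beside them.

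Within spot classes the libraries were compared in the same way. In cortical spots, of 29 members tested, 0 were higher, beside 2.89% of 8020 genes, and 1 was lower, beside 1.87%: Gabrd, with 67 UMIs (79.5 CPM) in flat and 26 UMIs (38.7 CPM) in micropillar spots and a log2 ratio of -1.02 (-1.75 to -0.37). In striatal spots Gabrd was not lower, with 77.1 and 105 CPM. There 21 members were tested, of which Grik2 (8 and 14 UMIs, 1.35) and Gria1 (298 and 471 CPM, 0.66) were higher, beside 2.91% of 4569 genes, and Gabrb1 (17 and 3 UMIs, -1.86) and Grin2b (252 and 157 CPM, -0.68) were lower, beside 2.41%. Neither library alone held 20 UMIs of Grik2 or Gabrb1 in striatal spots. In other brain spots none of 32 passed, beside 5.21% and 2.32%. There Grin3a had 3 and 19 UMIs, with a log2 ratio of 1.60 (-0.004 to 4.16). Grin2c had 4 and 22 UMIs there, with a ratio of 1.44 (-0.0007 to 3.55), and both intervals just included 0. Grin3a and Grin2c had fewer than 20 UMIs in cortical and in striatal spots. Their hypothalamic levels were 20.03 and 41.72 CPM for Grin3a (2 and 19 UMIs) and 0 and 13.2 CPM for Grin2c (0 and 6 UMIs).

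Over the whole sections 37 members were tested. Of these 4 were higher in the micropillar library, beside 5.84% of 12145 genes, namely Grin3a (log2 ratio 1.47), Grin2c (1.11), Gabrp (0.79) and Gabra3 (0.76), and 2 were lower, beside 2.73%, Gabrd (-0.73) and Grm2 (-0.70). Under the scaling factors of edgeR and DESeq2, Gabrp (0.73) and Gabra3 (0.70) stayed past 1.5-fold but their intervals included 0, so neither was called. With each spot given the same weight and calls by fold alone, 12 members were higher and 0 lower. The share of all genes under that rule is not given here, so the count is not read as a result about the members. Of the members with many UMIs, in brain spots the log2 ratio was -0.03 for Gabbr1, -0.12 for Gria2 and -0.24 for Grin1. Gria1 stood at 262 and 333 CPM, 0.34 (0.18 to 0.51), under 1.5-fold. Of the 54 partner genes tested in brain spots, 4 were higher and 1 lower, near the 7.45% and 2.14% of 10999 genes. Slc17a6 had 28.4 and 63.4 CPM, and the scaffold gene Homer1 had 78.7 and 39.5 CPM.

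**Figure D5:**
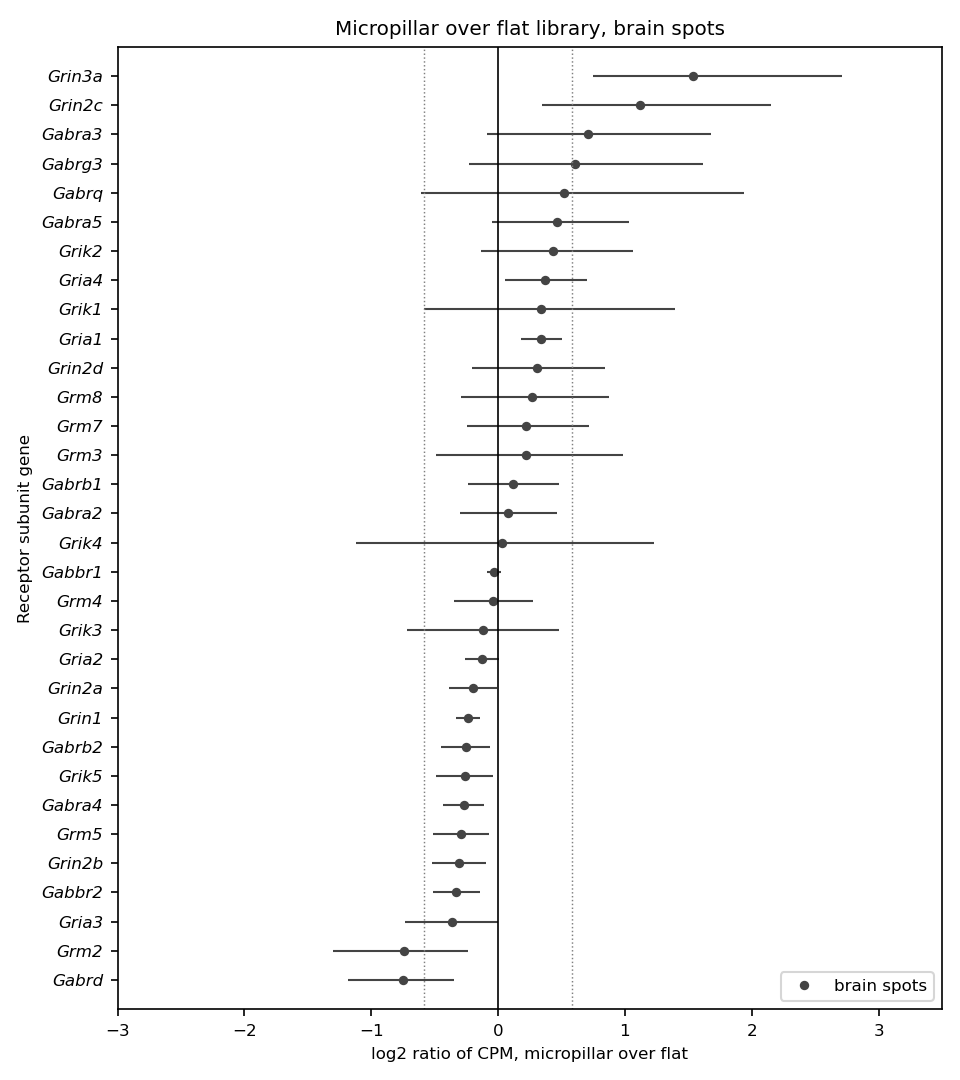
Log2 ratio of CPM, micropillar over flat library, in brain spots for 32 subunit genes, with 95% counting intervals. Dotted lines mark 1.5-fold; Grin3a and Grin2c lie right of these lines and Gabrd and Grm2 left of them with intervals off 0, and each side of a ratio is 1 library.

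In spots called non-brain the receptor genes were scarcer than in brain spots. The 178 flat and 245 micropillar spots called neither brain nor non-brain are not among these. There Gabbr1 had 1971 and 1564 CPM and Grin1 644 and 553 CPM. Summed over the 42 members, non-brain spots held 977 CPM (875 to 1087) in flat and 2235 CPM (2109 to 2366) in the micropillar section, and of these sums Gabbr1 made up 434 and 752 CPM. The 20 genes of the brain list summed to 1659 and 3830 CPM in the same spots, and their part in the sums was not tested. In epidermal spots the members summed to 717 and 848 CPM and in matrix spots to 881 and 1466 CPM. Gabrp, the pi subunit known from tissues other than brain, was the exception among the members. It had 7 UMIs (54.0 CPM) in epidermal marker spots of the flat and 24 UMIs (138 CPM) in those of the micropillar library, and 0 and 9 UMIs in brain spots. It was not confined to epidermal spots, with 8 UMIs (97.3 CPM) in flat and 12 UMIs (52.2 CPM) in micropillar spots of the other non-brain class. It was at least 33.6-fold higher in epidermal than in brain spots of the flat library, and its log2 ratio in the micropillar library was 4.96 (4.16 to 6.60). Gabrp reached the 20 UMIs needed only with those of epidermal spots. Of 37 members tested in this comparison, 1 was higher, beside 14.6% of 11537 genes, and 20 were lower, beside 14.5%. The other 16 passed in neither direction, on few epidermal UMIs. Epidermal spots kept some brain RNA, with 1226 and 1477 CPM over the 20 brain genes, and its part in the other members' values there was not tested. Grm5 had no UMI there in either library.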

How the data were processed

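Spatial transcriptomes of 2 libraries were used, 1 per implant group. The authors deposited raw counts of UMIs per gene and spot, which the file headers credit to Space Ranger 2.0.1. Cell Ranger 7.2.0 and mm10 are listed in the submitters' processing notes, and FFPE slides and a directional mRNA kit in the labels' protocol. No source used here gives the probe set, aligner settings or strand setting. Of 19465 rows, 11 repeated a symbol, and for each symbol the row with more UMIs was kept.

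From the deposited counts, UMIs were summed over the spots of a class and divided by all UMIs there to give CPM. Ratios were log2 of CPM plus 1. Intervals are 95% exact Poisson (levels) or Clopper-Pearson (shares, ratios) and cover counting error only, since spots of 1 section are not replicates. No p-value was computed. A gene needed 20 UMIs over the spots compared. A library difference was called at 1.5-fold and a class difference at 2-fold the same way in both libraries, with intervals excluding 0. A floor of 3 counts stands for no UMI in "at least" folds. All 42 genes were accounted for, and those called, the most abundant, and the highest and lowest partner genes were named. The members and lists were chosen with earlier results of these data known. Hba-a1, Bglap2, Glul and Gabarap of the lists were not analysed here. Counts and sums cover all 42 genes, but results of some single genes are not reported here, and figures leave these genes out.

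Gene positions came from GENCODE M21 by identifier (42 of 42 matched) and promoters from RefSeq GRCm38.p6. Tools were Python 3.11.15 with numpy 2.4.6, scipy 1.17.1, pandas 2.3.3 and python-igraph 0.11.9, and R 4.3.3 with edgeR 4.0.16 and DESeq2 1.42.0, both used only for scaling factors. Calls were tested on simulated Poisson counts with known fold changes. These hold counting error only, so they cannot show how calls fare under differences between sections or spots. Alternatives covered scaling, spot weight, minimum UMIs, pseudocount, enrichment, denominator, clustering and transcript length.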

Additional observations from a re-analysis of the deposited data

Results flagged for a closer look

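Spots with fewer than 100 UMIs were in no comparison, yet held UMIs of the receptor subunit genes in both libraries, above the limit that a count of 0 allows. The flat library had 480 such spots with 22950 UMIs in all, of which 61 belonged to 21 of the 42 genes (2658 CPM, interval 2033 to 3414, against 131 CPM for 3 counts). The micropillar library had 239 such spots with 15345 UMIs, of which 75 belonged to 17 of the genes (4888 CPM, 3844 to 6127, against 196 CPM for 3 counts). Gabbr1 gave 24 of the 61 and 25 of the 75.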

How the results depend on the processing

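No paired analysis was possible because each group had 1 library. The count of members called between cortical and striatal spots was 8 and ranged from 6 to 10 over 9 alternatives. Of 63 values of the 7 named genes under these, 57 kept their call and 6 lost it with the same direction. In brain spots between the libraries, 44 of 48 values kept their call, under edgeR and DESeq2 scaling all 4 genes. DESeq2 and edgeR scaling moved all log2 ratios by -0.07 in brain spots and -0.06 in whole sections. With the mean of per-spot CPM, called by fold alone since it has no counting interval, calls between libraries numbered 12 in whole sections (6 as reported), 5 in cortical (1), 7 in striatal (4) and 8 in other brain spots (0), and calls by class 4 for oligodendrocyte (0), 5 for thalamic (0), 12 for choroid spots (2) and 1 for upper over deep layers (0). Per pan-neuronal UMI, calls numbered 2 in other brain spots between libraries, 2 for hypothalamic (4) and 0 for choroid spots. With an enrichment of 2, calls between libraries numbered 2 in cortical and 4 in other brain spots, and 1 for oligodendrocyte spots, and with the lower enrichment tried there was 1 in other brain spots. With at least 250 UMIs per spot there were 2 calls in other brain spots between libraries and 1 for choroid spots, and with at least 500 UMIs 2 and 0, while cortical spots made up 29.3% of flat brain spots (26.9% as reported). The alternatives within spot classes between libraries, and the equal class mix, were added after the data were seen. Apart from the missing interval, the causes of these changes were not tested. Shares of all genes called under the alternatives are not given here, so these counts of members have no background beside them. Depth limits the rarer genes: 3 counts equal 15.7 CPM in micropillar striatal spots and 254 CPM in flat thalamic spots.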
